A study of Homo sapiens with 12 samples.

Results

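Immediate early genes are switched on within minutes of a stimulus from promoters that need no new protein synthesis, and their short-lived transcripts encode regulators of the genes that follow. The 10 genes described here were a named list: the orphan nuclear receptors NR4A1, NR4A2 and NR4A3, the AP-1 proteins FOS, FOSB, JUN and JUNB, the zinc finger factor EGR1, the small nuclear protein IER2, and DUSP1, a phosphatase that inactivates MAP kinases. All 10 had a row in both deposited tables, which held 61806 genes for LP-1 and 19130 for U266. Both are established human multiple myeloma cell lines, each grown from 1 patient's malignant plasma cells, labelled as bone marrow in tissue and WT in genotype. LP-1 cells and U266 cells each received dihydroartemisinin (DHA), the active form of the artemisinin antimalarials, at its IC50, or the DMSO in which it was dissolved, for 12 h. The 4 groups, LP-1 DHA, LP-1 DMSO, U266 DHA and U266 DMSO, held 3 libraries each, and all were cultured in RPMI-1640 with serum. The sources used here do not state the concentration behind the IC50. The labels do not say whether replicates were separate cultures, so the p-values reflect only sample-to-sample spread, which may be technical.

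As background, signals through the ERK, JNK and p38 MAP kinases reach these promoters through serum response factor with its partners and through CREB-type factors. JUN and FOS family proteins pair to form AP-1, NR4A receptors act without a known physiological ligand, and DUSP1 closes the loop by dephosphorylating the kinases. In lymphoid cells NR4A and EGR genes are classical reporters of antigen receptor signalling, and in mice loss of Nr4a1 together with Nr4a3 leads to myeloid leukaemia.

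In GENCODE v29 (GRCh38) 7 of the 10 genes span under 10 kb, against 19.2% of the 9924 protein-coding genes tested in LP-1, whose median span was 31.3 kb. JUN (ENSG00000177606, chromosome 1, 58780788 to 58784327, minus strand) and JUNB (ENSG00000171223, chromosome 19, 12791496 to 12793315, plus strand) have a single exon. The 3 NR4A genes are the long ones: NR4A1 (ENSG00000123358, chromosome 12, 52022832 to 52059507, plus strand), NR4A2 (ENSG00000153234, chromosome 2, 156324432 to 156342348, minus strand) and NR4A3 (ENSG00000119508, chromosome 9, 99821855 to 99866891, plus strand) span 36.68, 17.92 and 45.04 kb. FOS (ENSG00000170345) lies on chromosome 14 at 75278774 to 75282230 and FOSB (ENSG00000125740) on chromosome 19 at 45467995 to 45475179, both on the plus strand. EGR1 (ENSG00000120738, chromosome 5, 138465490 to 138469315, plus strand) and DUSP1 (ENSG00000120129, chromosome 5, 172768090 to 172771195, minus strand) share a chromosome, and IER2 (ENSG00000160888, 13150415 to 13154908, plus strand) is on chromosome 19.

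Promoter windows, 250 bases before to 50 after the annotated start, were available from RefSeq (GRCh38.p14) for 9 of the 10 genes; NR4A2 was not among them. The 5 printed here represent the receptors, the AP-1 genes, EGR1 and the phosphatase, and are shown because they carry the letters that these genes share most. Capitals mark TGACG, the core of the cAMP response element, on either strand, and the CArG boxes to which serum response factor binds.
NR4A3, chr9:99821635-99821934, plus strand: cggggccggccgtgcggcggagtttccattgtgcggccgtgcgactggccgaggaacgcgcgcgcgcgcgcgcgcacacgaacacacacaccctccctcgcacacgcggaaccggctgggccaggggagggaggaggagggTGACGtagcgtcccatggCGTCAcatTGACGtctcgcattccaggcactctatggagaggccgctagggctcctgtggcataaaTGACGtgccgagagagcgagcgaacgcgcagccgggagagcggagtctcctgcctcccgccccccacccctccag
FOS, chr14:75278578-75278877, plus strand: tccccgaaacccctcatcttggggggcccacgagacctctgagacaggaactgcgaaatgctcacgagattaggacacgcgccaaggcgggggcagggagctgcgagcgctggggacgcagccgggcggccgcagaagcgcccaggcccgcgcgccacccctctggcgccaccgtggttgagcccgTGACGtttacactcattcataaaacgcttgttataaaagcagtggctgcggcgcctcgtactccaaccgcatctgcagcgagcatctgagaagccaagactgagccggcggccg
JUN, chr1:58783998-58784297, minus strand: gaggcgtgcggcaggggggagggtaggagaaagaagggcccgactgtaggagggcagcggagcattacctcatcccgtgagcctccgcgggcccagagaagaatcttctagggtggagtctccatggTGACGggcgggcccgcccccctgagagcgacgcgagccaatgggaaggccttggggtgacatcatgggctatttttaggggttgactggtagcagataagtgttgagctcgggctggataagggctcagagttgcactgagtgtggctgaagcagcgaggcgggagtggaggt
EGR1, chr5:138465229-138465528, plus strand: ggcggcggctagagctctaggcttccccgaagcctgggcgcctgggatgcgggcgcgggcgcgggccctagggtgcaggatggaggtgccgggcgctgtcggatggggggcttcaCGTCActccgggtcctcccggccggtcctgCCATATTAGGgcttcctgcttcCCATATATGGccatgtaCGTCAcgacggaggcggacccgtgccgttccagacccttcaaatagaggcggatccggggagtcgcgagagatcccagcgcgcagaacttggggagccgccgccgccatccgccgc
DUSP1, chr5:172771146-172771445, minus strand: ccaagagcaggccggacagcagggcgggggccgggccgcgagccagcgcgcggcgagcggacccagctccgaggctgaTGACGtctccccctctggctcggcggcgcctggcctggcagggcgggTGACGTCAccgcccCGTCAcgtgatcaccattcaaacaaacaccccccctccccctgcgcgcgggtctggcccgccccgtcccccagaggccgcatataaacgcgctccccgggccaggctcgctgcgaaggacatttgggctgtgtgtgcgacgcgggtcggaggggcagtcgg
TGACG was found on either strand in 8 of the 9 genes with a window, against 24.5% of 34796 promoters of the same length. Of NR4A1's windows neither held it. NR4A3 and DUSP1 each held 4 matches. In DUSP1 the matches that start at -125 and -122 from the annotated start overlap, since they are both strands of 1 palindrome. The single FOS match began at -64 and the single JUN match at -123. Within these windows EGR1 alone held CArG boxes, at -105 and -83, which 1.3% of all promoters hold. Sites more than 250 bases before the start were not searched. The AP-1 motif TGANTCA was in none of the 9, against 7.73% of promoters, and neither was the NR4A monomer motif AAAGGTCA, against 1.21%. Other forms of the AP-1 motif were not searched. GCGNGGGCG, an EGR motif, was in EGR1 only, against 9.43%. A match is a description of letters and no evidence of binding.

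The LP-1 libraries held 13.4 to 17.5 M recovered reads and the U266 libraries 10.3 to 21.8 M, so that 3 reads on a 2 kb transcript stood for 0.086 to 0.112 FPKM in LP-1 and for 0.069 to 0.145 FPKM in U266. Low recovered counts, of at most 20 reads, were even in 37.3 to 39.6% of cases in LP-1. In U266 they were even in 52.4% in DHA replicate 3 and in 76.2 to 77.9% in the other 5 libraries. A recovered read may therefore not be the same unit in the 2 lines or in that library, which was not tested. FPKM is a level per transcript length and library size. In each line 8 of 9 plasma cell markers were at 1 FPKM or more in all libraries; SLAMF7 was the exception in LP-1 and CD38 in U266. U266 DHA replicate 3 stood apart: of 2610 genes at 0 in the other 5 U266 libraries, 2032 were above 0 in it. It was also the highest library for 85.6% of 8338 genes with a DMSO mean under 1 FPKM, and for 17 of 26 markers of other cell types. Summed B cell markers reached 8.82 FPKM in it, against 0.578 and 0.65 FPKM in the other U266 DHA libraries and 1.08 to 1.73 FPKM in the U266 DMSO libraries. In LP-1, DMSO replicate 3 gave 10.5% of its FPKM to ribosomal protein genes, against 5.78 to 6.01% in the DHA libraries and 7.22 and 6.13% in the other DMSO libraries. Several marker sums moved with DHA. Plasma cell markers summed to 941 to 953 FPKM in LP-1 DHA and 1017 to 1374 FPKM in LP-1 DMSO, and to 736 to 802 FPKM in U266 DHA and 1099 to 1121 FPKM in U266 DMSO. In LP-1 the 6 stromal and endothelial markers summed to 1.57 to 1.67 FPKM with DHA and 3.97 to 5.29 FPKM with DMSO, with CDH5 at 0 in all 6 libraries and COL1A2 and VWF at 0 in the DMSO libraries. The 5 B cell markers, none at 0 throughout a group, summed to 0.63 to 0.76 FPKM in LP-1 DHA and 1.07 to 1.69 FPKM in LP-1 DMSO. The 6 T and NK cell markers summed to 0.02 to 0.12 FPKM in LP-1 DHA and 0.19 to 0.45 FPKM in LP-1 DMSO. The 4 erythroid markers went the other way in LP-1, at 0.34 to 0.7 FPKM with DHA and 0.1 to 0.18 FPKM with DMSO. In U266 the 5 stromal and endothelial markers in the table summed to 1.7 to 5.21 FPKM with DHA and 1.05 to 1.45 FPKM with DMSO, and the 4 erythroid markers to 6.98 to 7.56 FPKM with DHA and 10.2 to 11.6 FPKM with DMSO. The part of these markers in the results was not tested. For several results that rest on either library, the values without it are also given. In bulk RNA, fewer cells of a type and less RNA per cell cannot be told apart.

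In LP-1, 8 of the 10 genes passed the filter of 1 FPKM in at least 3 of 6 libraries. With DHA 6 of these were lower (NR4A1, NR4A2, FOS, JUNB, EGR1 and IER2), JUN was higher, and DUSP1 did not pass the test. Among all 12514 genes tested in LP-1, 20.2% were called lower and 20% higher by limma at an adjusted p of 0.05. NR4A1, NR4A2 and EGR1 had every DHA library under 1 FPKM and passed the filter through their DMSO libraries alone. In U266, 5 of the 10 genes passed the filter. JUN and DUSP1 were higher, JUNB and IER2 lower, and EGR1 did not pass; of 10422 genes tested in U266, 21.1% were called higher and 19.6% lower. Over all 10 genes, whether tested or not, the LP-1 DHA libraries lay wholly below the DMSO libraries for 7 and wholly above for 2, where 28.6% and 30.2% of tested genes did so. In U266 the DHA libraries lay wholly below for 2 and wholly above for 4, against 23.9% and 27.6% of tested genes. Those shares cover only genes that passed the filter. Of the 8 that passed in LP-1, 6 lay wholly below and 1 wholly above. Of the 5 that passed in U266, 2 lay wholly below and 2 wholly above.

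**Figure D1:**
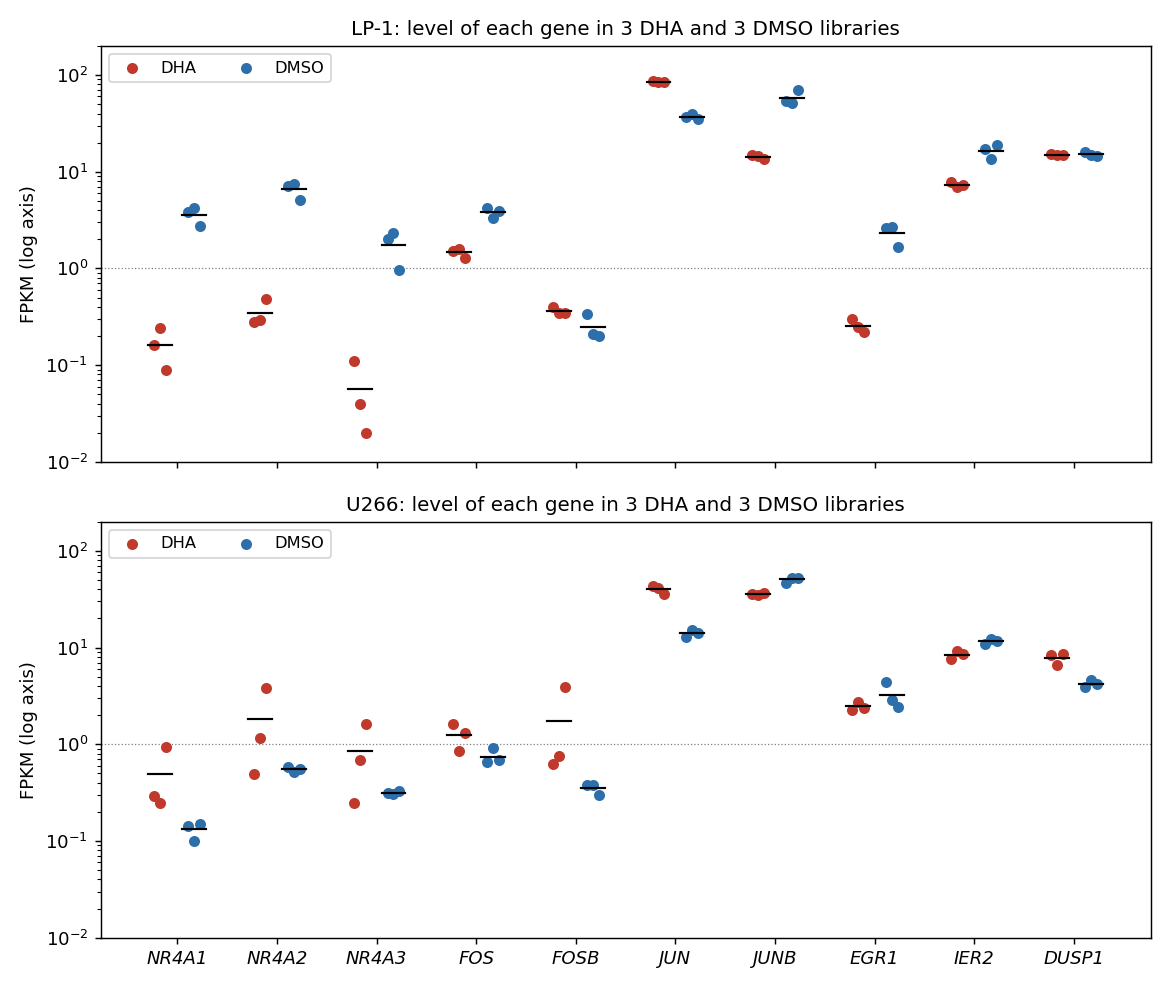
FPKM of each gene (log axis) in every library of LP-1 (top) and U266 (bottom), with the 3 DHA libraries in red on the left of each pair and the 3 DMSO libraries in blue on the right; black bars are means and the dotted line marks 1 FPKM. In LP-1 the DHA points of the NR4A genes lie far below the DMSO points, and in U266 DHA replicate 3 is the highest point of NR4A1, NR4A2, NR4A3 and FOSB.

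The NR4A receptors showed the largest falls in mean FPKM, as a fold, among the 10 genes in LP-1. NR4A1, the receptor also known as Nur77, stood at 0.16, 0.24 and 0.09 FPKM in the LP-1 DHA libraries and at 3.79, 4.24 and 2.76 FPKM in the DMSO libraries. The groups were far apart, with about 9 to 31 reads per DHA library and 311 to 418 per DMSO library. Means were 0.163 ± 0.0751 FPKM with DHA and 3.6 ± 0.759 FPKM with DMSO (SD, n = 3 each), 22-fold lower with DHA. On the log2(FPKM + 1) scale, which understates changes of low genes, the change was -1.97 (SE 0.15, limma adjusted p = 0.000333). NR4A2, known as Nurr1, was at 0.28, 0.29 and 0.48 FPKM in LP-1 DHA and at 7.1, 7.51 and 5.14 FPKM in LP-1 DMSO. It had the highest NR4A level with DMSO and fell 18.8-fold (log2 change -2.48, SE 0.15, limma adjusted p = 0.000182). With voom on recovered reads, which has no pseudocount of 1 FPKM, the log2 changes were -4.48 for NR4A1 and -4.23 for NR4A2. NR4A3, known as NOR1, was at 0.11, 0.04 and 0.02 FPKM in LP-1 DHA and at 2, 2.31 and 0.97 FPKM in LP-1 DMSO. These correspond to about 10, 4 and 2 reads with DHA and to 94 to 197 with DMSO, and the groups did not overlap. NR4A3 missed the filter; its mean was 31.1-fold lower with DHA, and a limma fit without a filter gave a log2 change of -1.35 (SE 0.21, adjusted p = 0.0126), a rule by which 7.6% of 31244 genes were called lower. Summed over the 3 receptors, each LP-1 DHA library held 0.55 to 0.59 FPKM, against 8.87 to 14.1 FPKM in the DMSO libraries. DMSO replicate 3 was the lowest DMSO library for all 3; without it and without a filter the log2 changes were -2.11, -2.62 and -1.58 for NR4A1, NR4A2 and NR4A3.

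None of the 3 receptors passed the filter in U266, where their levels with DMSO were low and even. NR4A1 was at 0.292, 0.248 and 0.944 FPKM in the U266 DHA libraries and at 0.144, 0.1 and 0.151 FPKM in the DMSO libraries. All DHA values lay above all DMSO values, at 22 to 113 reads against 16 to 20. NR4A2 was at 0.488, 1.17 and 3.83 FPKM in U266 DHA and at 0.584, 0.519 and 0.556 FPKM in U266 DMSO. NR4A3 was at 0.245, 0.682 and 1.64 FPKM in U266 DHA and at 0.317, 0.305 and 0.328 FPKM in U266 DMSO. For both, DHA replicate 1 was below the DMSO libraries and DHA replicate 3 well above them, so the groups overlapped. In the limma fit without a filter the log2 changes were 0.37 for NR4A1, 0.69 for NR4A2 and 0.43 for NR4A3, with adjusted p = 0.299, 0.375 and 0.412; that fit called 8.99% of 18552 genes higher and 8.7% lower. DHA replicate 3, the library that stood apart, was the highest of the 6 for each receptor; without it the changes were 0.17, 0.21 and 0.14 with adjusted p = 0.043, 0.556 and 0.653. By that last rule 8.07% of genes were called higher. The part of whatever sets that library apart in the NR4A values was not tested. Summed NR4A levels were 1.03, 2.1 and 6.41 FPKM in the U266 DHA libraries and 0.924 to 1.05 FPKM in the DMSO libraries.

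FOS and FOSB, the AP-1 subunits that need a JUN partner, were expressed at low levels in both lines. FOS was at 1.53, 1.6 and 1.28 FPKM in LP-1 DHA and at 4.18, 3.32 and 3.91 FPKM in LP-1 DMSO. The groups did not overlap, and FOS was 2.59-fold lower with DHA (log2 change -0.96, SE 0.11, limma adjusted p = 0.00127). In U266 FOS was at 1.62, 0.858 and 1.3 FPKM with DHA and at 0.651, 0.905 and 0.681 FPKM with DMSO, with 1 DHA library inside the DMSO range (log2 change 0.36, adjusted p = 0.253 in the limma fit without a filter). FOSB missed the filter in both lines. It was at 0.4, 0.35 and 0.35 FPKM in LP-1 DHA and at 0.34, 0.21 and 0.2 FPKM in LP-1 DMSO, groups that only just separated at 16 to 34 reads a library. In the limma fit without a filter its LP-1 change was 0.13 (adjusted p = 0.285), where 6.84% of genes were called higher. In U266 FOSB was at 0.628, 0.763 and 3.88 FPKM with DHA and at 0.379, 0.379 and 0.298 FPKM with DMSO. All U266 DHA values lay above the DMSO values, with 353 reads in DHA replicate 3 against 36 and 61 in the other DHA libraries. The U266 change of FOSB was 0.83 (adjusted p = 0.276, limma without a filter), and without DHA replicate 3 it was 0.33 with an adjusted p of 0.036.

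JUN and JUNB moved in opposite directions in both lines. JUN, a strong activator whose protein is phosphorylated by JNK, was at 86.7, 85.7 and 84.5 FPKM in LP-1 DHA and at 36.5, 39.4 and 34.7 FPKM in LP-1 DMSO. JUN was at 43.6, 41.2 and 35.8 FPKM in U266 DHA and at 12.8, 15.1 and 14.1 FPKM in U266 DMSO. In neither line did the groups overlap. JUN rose 2.32-fold in LP-1 (log2 change 1.19, SE 0.08, limma adjusted p = 0.000231) and 2.87-fold in U266 (1.45, SE 0.08, adjusted p = 5.66e-07). JUNB, which activates less strongly and can oppose JUN, was at 15, 14.6 and 13.5 FPKM in LP-1 DHA and at 53.5, 51.3 and 69.3 FPKM in LP-1 DMSO. JUNB was at 35.4, 34.8 and 37 FPKM in U266 DHA and at 47, 52.6 and 53 FPKM in U266 DMSO. Again no DHA library reached a DMSO library. JUNB fell 4.04-fold in LP-1 (log2 change -1.93, SE 0.13, limma adjusted p = 0.000232) and 1.42-fold in U266 (-0.50, SE 0.06, adjusted p = 8.35e-05). Without LP-1 DMSO replicate 3, the highest LP-1 library for JUNB, its LP-1 change was -1.8.

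The ratio of JUN to JUNB transcripts, per length, was 5.77 to 6.27 in the LP-1 DHA libraries and 0.5 to 0.768 in the LP-1 DMSO libraries. In U266 it was 0.967 to 1.23 with DHA and 0.267 to 0.286 with DMSO. Among the 7 AP-1 genes FOS, FOSB, FOSL1, FOSL2, JUN, JUNB and JUND, JUN held 60.2 to 61.6% of the summed FPKM in LP-1 DHA and 21.8 to 30.2% in LP-1 DMSO. JUNB held 9.82 to 10.4% of it in LP-1 DHA and 39.4 to 43.6% in LP-1 DMSO. In U266 JUN held 27.3 to 31.1% with DHA and 12.1 to 13.4% with DMSO, and JUNB 25.3 to 28.2% with DHA and 44.5 to 48.1% with DMSO. The sum itself was 137 to 144 FPKM in LP-1 DHA and 130 to 159 FPKM in LP-1 DMSO, so in LP-1 the groups overlapped in the total and not in the JUN and JUNB shares. JUND held 25.1 to 25.4% in LP-1 DHA and 23.7 to 29.8% in LP-1 DMSO, where the groups overlapped. In U266 the sum was 131 to 140 FPKM with DHA and 106 to 113 FPKM with DMSO.

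**Figure D2:**
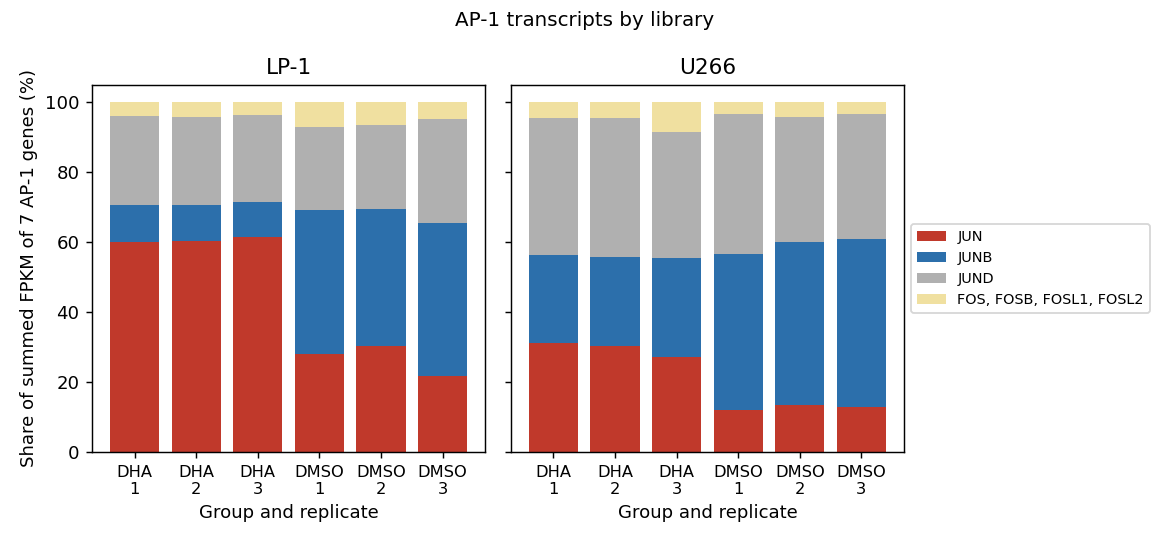
Share of the summed FPKM of 7 AP-1 genes (bars from 0 to 100%) held by JUN, JUNB, JUND and the 4 FOS genes in each library, DHA libraries on the left and DMSO libraries on the right of each panel. JUN held 60.2 to 61.6% in LP-1 DHA and 21.8 to 30.2% in LP-1 DMSO, where JUNB held 9.82 to 10.4% and 39.4 to 43.6%.

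EGR1, a zinc finger activator of growth and stress genes, was at 0.3, 0.25 and 0.22 FPKM in LP-1 DHA and at 2.63, 2.67 and 1.65 FPKM in LP-1 DMSO. With 10 to 14 reads per DHA library and 80 to 113 per DMSO library, the groups did not overlap, and EGR1 was 9.03-fold lower with DHA (log2 change -1.38, SE 0.15, limma adjusted p = 0.00115). The change was -2.74 with a pseudocount of 0.1 and -3.06 with voom on recovered reads. In U266 EGR1 was at 2.25, 2.74 and 2.39 FPKM with DHA and at 4.36, 2.9 and 2.42 FPKM with DMSO. These groups overlapped, and the change of -0.26 (95% interval -0.62 to 0.09) did not pass (limma adjusted p = 0.219). The interval does not show that EGR1 was the same in both U266 groups. IER2 was at 7.89, 6.96 and 7.22 FPKM in LP-1 DHA and at 17, 13.5 and 19.1 FPKM in LP-1 DMSO. In U266 IER2 was at 7.69, 9.11 and 8.53 FPKM with DHA and at 10.9, 12.2 and 11.7 FPKM with DMSO. IER2 was lower in every DHA library of both lines, 2.25-fold in LP-1 (log2 change -1.06, limma adjusted p = 0.00185) and 1.37-fold in U266 (-0.42, adjusted p = 0.00169).

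DUSP1 was at 15.2, 14.8 and 14.8 FPKM in LP-1 DHA and at 15.9, 14.9 and 14.7 FPKM in LP-1 DMSO. The groups overlapped almost fully, and the change of -0.02 had a 95% interval of -0.19 to 0.15 (limma adjusted p = 0.831). In U266 DUSP1 was at 8.44, 6.64 and 8.55 FPKM with DHA and at 3.89, 4.63 and 4.17 FPKM with DMSO. Every U266 DHA library lay above every DMSO library, and DUSP1 rose 1.86-fold (log2 change 0.76, SE 0.1, limma adjusted p = 0.000278). Without U266 DHA replicate 3, its highest library, the change was 0.70 (limma adjusted p = 0.000836). With the filter dropped as well it was also 0.70 (adjusted p = 0.0438).

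**Figure D3:**
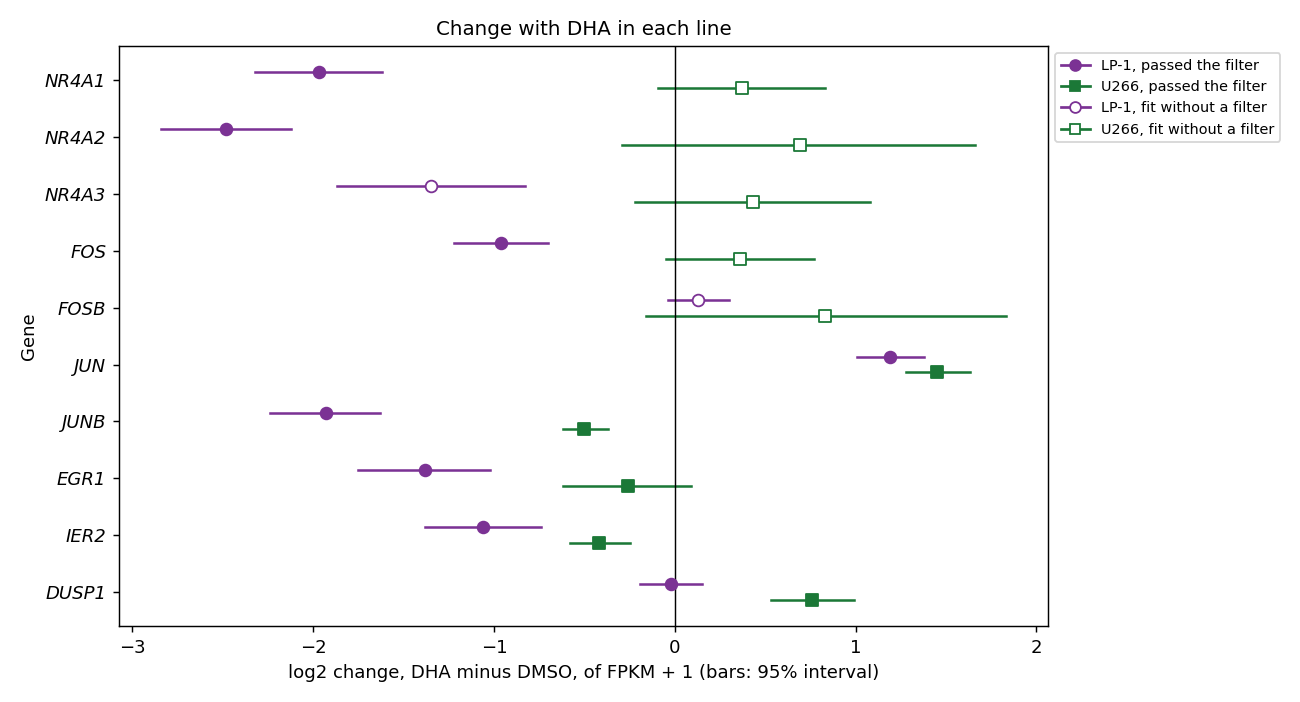
Log2 change (DHA minus DMSO, of FPKM + 1) of each gene with its 95% interval in LP-1 (purple circles) and U266 (green squares); filled symbols passed the filter, open symbols come from the fit without a filter. JUN is to the right of 0 in both lines, at 1.19 and 1.45, while the LP-1 values of the NR4A genes, JUNB and EGR1 run from -2.48 to -1.35.

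The order of levels changed with DHA in both lines. In LP-1 DHA the order by mean was JUN, DUSP1, JUNB, IER2, FOS, FOSB, NR4A2, EGR1, NR4A1 and NR4A3. There DUSP1 and JUNB overlapped, as did each neighbouring pair from FOSB down. In LP-1 DMSO it was JUNB, JUN, IER2, DUSP1, NR4A2, FOS, NR4A1, EGR1, NR4A3 and FOSB, with overlaps between IER2 and DUSP1, FOS and NR4A1, and EGR1 and NR4A3. In U266 DHA it was JUN, JUNB, IER2, DUSP1, EGR1, NR4A2, FOSB, FOS, NR4A3 and NR4A1, with JUN overlapping JUNB, IER2 overlapping DUSP1 and every neighbouring pair from EGR1 down overlapping. Without U266 DHA replicate 3 the first 5 places were as before and the rest ran FOS (1.24 FPKM), NR4A2 (0.829), FOSB (0.696), NR4A3 (0.464) and NR4A1 (0.27), as means of 2 libraries. In U266 DMSO it was JUNB, JUN, IER2, DUSP1, EGR1, FOS, NR4A2, FOSB, NR4A3 and NR4A1, with overlaps between DUSP1 and EGR1 and between FOSB and NR4A3.

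The change with DHA differed between LP-1 and U266 for 4 of the 5 genes tested in both lines, in an interaction contrast that called 34.6% of 8695 genes. Differences are LP-1 minus U266 on the log2(FPKM + 1) scale. JUNB changed by -1.93 in LP-1 and -0.50 in U266, a difference of -1.44 (limma adjusted p = 3.07e-05). EGR1 changed by -1.38 and -0.26, a difference of -1.12 (adjusted p = 0.00332), or -2.40 with a pseudocount of 0.1. In LP-1 EGR1 had passed the filter through its DMSO libraries alone. The difference was -0.64 for IER2 (adjusted p = 0.00819) and -0.78 for DUSP1 (adjusted p = 0.000862). JUN did not pass, at -0.26 (95% interval -0.52 to 0.0, adjusted p = 0.109). Without LP-1 DMSO replicate 3 JUN passed at -0.30 (adjusted p = 0.0309), and without U266 DHA replicate 3 at -0.34 (adjusted p = 0.042); across the alternatives the adjusted p for JUN lay between 0.0309 and 0.245. Without a filter 8 of the 10 genes passed, where 21.8% of 15165 genes did. The further 4 were NR4A1 (-2.34, adjusted p = 9.88e-05), NR4A2 (-3.17, 0.000849), NR4A3 (-1.78, 0.00462) and FOS (-1.32, 0.000587). Without U266 DHA replicate 3 these were -2.14, -2.69, -1.49 and -1.30, with limma adjusted p of 4.07e-05, 7.87e-05, 0.00327 and 0.00145. With DMSO in U266, NR4A1, NR4A2, NR4A3 and FOS averaged 0.132, 0.553, 0.316 and 0.746 FPKM. That left them little room to fall on the log2(FPKM + 1) scale. A differing effect of DHA and that floor cannot be told apart for these 4. For every gene, cell line also goes together with a separately made table and an IC50 of unstated concentration. Their parts in the differences cannot be told apart. FOSB did not pass (-0.70, limma adjusted p = 0.309).

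Other genes of the same circuits were read from 8 lists, with those named being the called genes of largest rise and fall per list and line, plus a few chosen after their values were seen. The list counts stand beside 20% of all tested genes called higher and 20.2% lower in LP-1, and 21.1% and 19.6% in U266. Without LP-1 DMSO replicate 3, 3499 of 12514 LP-1 genes were called higher and 3574 lower. In LP-1, 6 of the 11 other AP-1 and small MAF genes were tested; 2 rose and 4 did not pass, at a list median of -0.05 against 0.01 for all tested genes. ATF3, a stress-induced factor that pairs with JUN, averaged 40.4 ± 1.5 FPKM with DHA and 7.57 ± 0.957 FPKM with DMSO in LP-1 (log2 change 2.28, limma adjusted p = 8.01e-05), and the other was MAFG (0.88). Without LP-1 DMSO replicate 3 the counts were 3 rises and 1 fall. In U266, 8 were tested and 6 rose, 1 fell and 1 did not pass (median 0.50 against 0.02). Among the rises JDP2 (0.75) passed the filter through its DHA libraries alone, with DMSO at 0.411 to 0.586 FPKM. ATF3 averaged 35.2 ± 1.43 FPKM with DHA and 5.49 ± 0.63 FPKM with DMSO in U266 (2.48, adjusted p = 9.85e-09), and BATF, a lymphoid partner of JUN proteins, fell (-0.63). JUND rose in U266 (0.35) and was at -0.01 in LP-1, where it did not pass (adjusted p = 0.98).

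Of the other immediate early transcription factors and EGR corepressors, 4 of 11 tested rose and 4 fell in LP-1 (median 0.26). KLF6, a zinc finger factor, rose in LP-1 to 85.5 ± 1.49 FPKM with DHA, against 36.3 ± 5.93 FPKM with DMSO (log2 change 1.23, limma adjusted p = 0.00101), and IER3 fell (-1.37). In U266, 2 of 9 tested rose, 2 fell and 5 did not pass (median 0.04). KLF2, a quiescence factor of lymphocytes, averaged 19.4 ± 0.457 FPKM with DHA and 67.6 ± 4.76 FPKM with DMSO in U266 (-1.75, adjusted p = 1.61e-08), and it also fell in LP-1 (-1.35); IER5 rose in U266 (0.54). Among other early response genes 6 of 17 rose and 8 fell in LP-1 (median -0.47), and 4 of 16 rose and 7 fell in U266 (median -0.15). Without LP-1 DMSO replicate 3 the LP-1 counts were 6 and 11. Of the LP-1 falls, CCN2, PLK2 and SOCS3 reached at most 0.63, 0.47 and 0.26 FPKM with DHA. They passed the filter through their DMSO libraries alone. PPP1R15A, which directs dephosphorylation of eIF2alpha, was the largest rise in U266 and stood level in LP-1 with CEBPB, which encodes a bZIP factor, at 74 ± 1.65 FPKM with DHA and 16.3 ± 0.41 FPKM with DMSO in LP-1 (2.12) and at 103 ± 5.08 FPKM with DHA and 17.9 ± 0.655 FPKM with DMSO in U266 (2.46). CEBPB also changed by 2.12 in LP-1, and by 2.32 without LP-1 DMSO replicate 3, where PPP1R15A changed by 2.10. The antiproliferative BTG2 was the largest fall in LP-1, at 219 ± 7.1 FPKM with DHA and 662 ± 21 FPKM with DMSO (-1.59), and the kinase gene SGK1 in U266 (-0.96).

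The MAP kinase phosphatases beside DUSP1 split in both lines. In LP-1, 1 of 5 tested rose, DUSP16 (0.86), 2 fell, led by DUSP5 (-0.48), and 2 did not pass (median -0.14). Without LP-1 DMSO replicate 3 the falls were 3. In U266, 3 of 7 rose, led by DUSP8 (0.92, 2.18 with a pseudocount of 0.1), 1 fell and 3 did not pass (median 0.03). DUSP8 had U266 DMSO libraries at 0.16 to 0.248 FPKM and passed the filter through its DHA libraries alone. The fall, DUSP7 (-0.45, limma adjusted p = 0.0342), had overlapping groups. Its call was lost without U266 DHA replicate 1 (adjusted p = 0.107) or 2 (0.0898) or DMSO replicate 1 (0.109) or 3 (0.13). Of the upstream kinases and RAS genes 6 of 22 rose and 4 fell in LP-1 (median 0.06; 7 and 7 without DMSO replicate 3). In U266 4 of 24 rose and 7 fell (median -0.06). RPS6KA2, an ERK-activated kinase, was the largest rise in each line (0.92 in LP-1, 1.70 there with a pseudocount of 0.1, and 1.12 in U266). In LP-1 RPS6KA2 had DMSO libraries at 0.25 to 0.77 FPKM and passed the filter through its DHA libraries alone. RPS6KA1, which fell in LP-1 (-0.72), passed through its DMSO libraries alone, with DHA at 0.57 to 0.73 FPKM. MAPK3, which encodes ERK1, was the largest fall in LP-1, at 6.61 ± 0.871 FPKM with DHA and 15.6 ± 1.62 FPKM with DMSO (-1.12, adjusted p = 0.00102), and MAP2K6, an activator of p38, in U266 (-0.50).

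Among the factors that bind these promoters and their coactivators, 4 of 19 rose, 2 fell and 13 did not pass in LP-1 (median 0.24), and 5 of 18 rose, 3 fell and 10 did not pass in U266 (median 0.06). Without LP-1 DMSO replicate 3 the LP-1 counts were 5 rises and 3 falls. Without U266 DHA replicate 3 the U266 counts were 6 and 4, where 2224 of 10422 genes were called higher and 2151 lower. MRTFA is not in the U266 count. There it was matched by its alias MAL, which is also the symbol of another gene, so MRTFA itself was not read. Serum response factor, SRF, averaged 12 ± 0.961 FPKM with DHA and 30.8 ± 3.96 FPKM with DMSO in LP-1 (log2 change -1.29, limma adjusted p = 0.000627). In U266 SRF averaged 9.76 ± 0.997 FPKM with DHA and 11.3 ± 0.736 FPKM with DMSO and did not pass (-0.20, adjusted p = 0.0844). The acetyltransferase gene EP300 was the largest rise in LP-1 (1.35, adjusted p = 0.0346), with DMSO libraries between 3.11 and 12.1 FPKM. Its call was lost without LP-1 DHA replicate 1 (adjusted p = 0.101), 2 (0.1) or 3 (0.0829) or DMSO replicate 1 (0.0805). In U266 MEF2A rose (0.59) and MEF2C fell (-1.0). Of the 8 genes for proteins that bind AU-rich elements, the signals that make these transcripts short-lived, 3 fell and 5 did not pass in LP-1 (median -0.13), while 3 rose and 3 fell in U266 (median -0.06). Without LP-1 DMSO replicate 3 the LP-1 falls were 4. ZFP36, which promotes decay of such transcripts, was the largest fall in LP-1 (-0.51, adjusted p = 0.0314), a call lost without LP-1 DHA replicate 1 (0.103), 2 (0.0906) or 3 (0.0924) or DMSO replicate 1 (0.0969) or 2 (0.065). In U266 ZFP36L1 rose (0.39, adjusted p = 0.0145, and 0.0587 without DMSO replicate 3) and KHSRP fell (-0.45). Of the retinoid X receptors, partners of NR4A1 and NR4A2, only RXRB was tested in each line. It did not pass in LP-1 (0.11, adjusted p = 0.405) and rose in U266 (0.29, adjusted p = 0.028), a call lost without U266 DHA replicate 1 (0.0912) or 3 (0.0748) or DMSO replicate 1 (0.108).

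**Figure D4:**
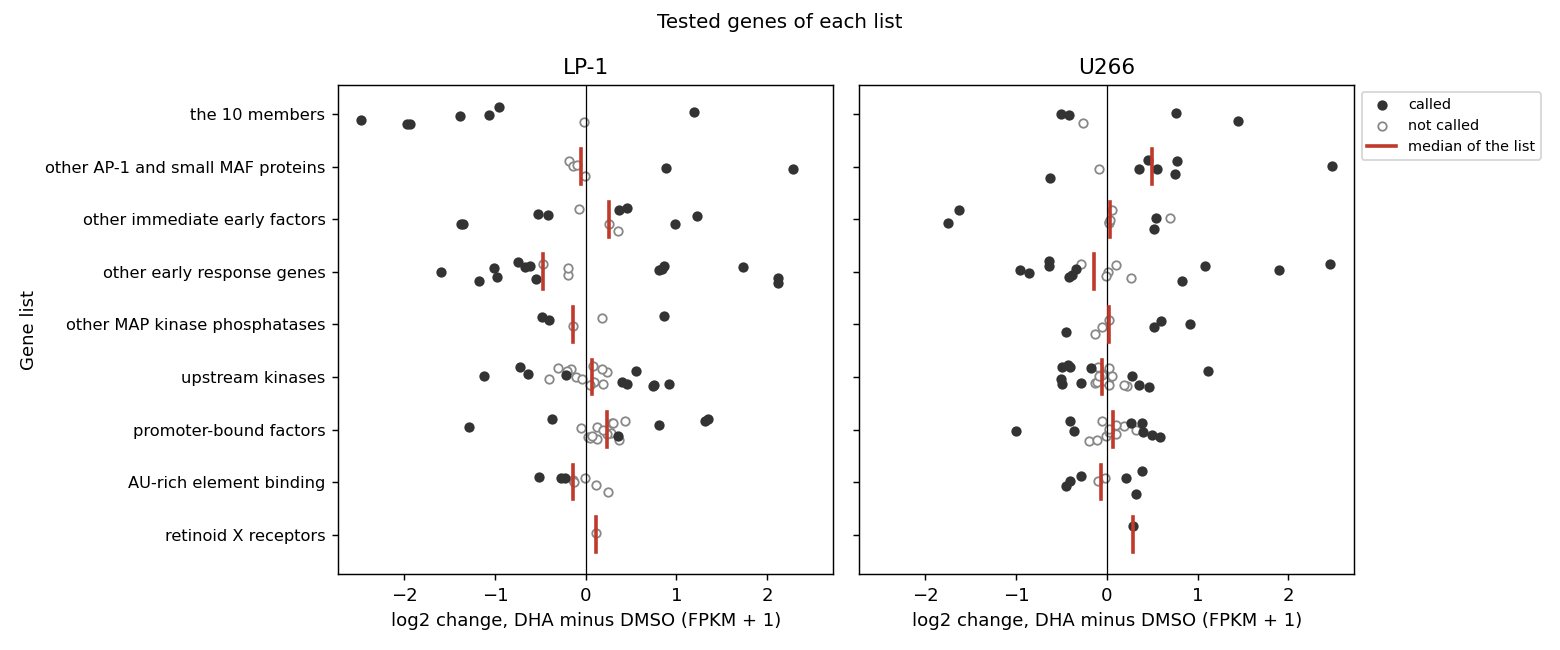
Log2 change (DHA minus DMSO, of FPKM + 1) of the tested genes of the 10 and of each of 8 other lists in LP-1 (left) and U266 (right); filled points were called, open points were not, and red bars are the medians of the 8 other lists. Apart from the retinoid X receptors, with 1 gene, each of the other lists has genes on both sides of 0 in each line, and the 8 medians run from -0.47 to 0.26 in LP-1 and from -0.15 to 0.50 in U266.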

How the data were processed

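RNA was extracted with a Qiagen kit and made into mRNA-seq libraries, per the labels' protocols. The authors deposited 1 table of FPKM values per line, with Ensembl IDs and values rounded to 2 decimals for LP-1 and symbols for U266. The submitters' processing notes name GRCm38 and mm10, which are mouse builds, while the rows are human genes; the sources used here do not give the aligner, annotation, counting tool or use of strand. Of the rows, 58254 (LP-1) and 18965 (U266) matched GENCODE v29. The tables differ in make, so levels were not compared between lines.

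The 10 genes, the lists and the alternatives were chosen with earlier results of these data known. Within a line, genes with 3 or more of the 6 libraries at 1 FPKM or above were fitted on log2(FPKM + 1) with limma 3.58.1 in R 4.3.3 (lmFit, then eBayes with its trend option; two-sided tests, Benjamini-Hochberg over all tested genes, threshold 0.05), each line alone. For the interaction, genes kept in each of the lines were fitted across the 12 libraries. Genes without an adjusted p from this fit were read from the same fit over all genes above 0. From each list the called genes of largest rise and fall per line were named. Read numbers and depth were worked back from low FPKM steps with exon-union lengths; in LP-1 85.4 to 86.6% of low values, and in U266 93.7 to 94.6%, were within 0.1 of a whole read. Recovered reads are approximate and cover counting error only. The filtered fits were tested on simulated data with independent noise for each gene. That simulation held no outlying library and did not cover the fits without a filter.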

Additional observations from a re-analysis of the deposited data

Results flagged for a closer look

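By the interaction contrast in limma, the change with DHA differed between LP-1 and U266 for 4 of the 5 genes tested in both (34.6% of 8695 genes did). Without a filter it differed for 8 of the 10 (21.8% of 15165 genes). The differences, LP-1 minus U266 on the log2(FPKM + 1) scale, were -1.44 for JUNB, -1.12 for EGR1, -0.64 for IER2 and -0.78 for DUSP1. In LP-1 EGR1 had passed the filter through its DMSO libraries alone. In the fit without a filter they were -2.34 for NR4A1, -3.17 for NR4A2, -1.78 for NR4A3 and -1.32 for FOS. These 4 had DMSO means under 1 FPKM in U266, which left little room to fall on this scale. For them a differing effect of DHA and that floor cannot be told apart. For all 8, cell line also goes together with a separately made table and an IC50 of unstated concentration, which cannot be told apart.

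Of the other lists, MYC, TRIB1 and SGK1 were called in opposite directions in the lines. MYC, a growth-promoting transcription factor, averaged 284 ± 11.5 FPKM with DHA and 207 ± 23.3 FPKM with DMSO in LP-1 (log2 change 0.46), and 2.6 ± 0.684 FPKM with DHA and 10 ± 0.681 FPKM with DMSO in U266 (-1.63), a difference of 2.09 (limma adjusted p = 1.02e-05). The LP-1 call of MYC (adjusted p = 0.0204) was lost without LP-1 DHA replicate 1 (0.0925), 2 (0.087) or 3 (0.0636), and its change was 0.74 with quantile normalization. TRIB1, a pseudokinase, averaged 113 ± 0.731 FPKM with DHA and 33.3 ± 2.3 FPKM with DMSO in LP-1 (1.73), and 63.8 ± 3.03 FPKM with DHA and 99.5 ± 0.711 FPKM with DMSO in U266 (-0.64), a difference of 2.37 (adjusted p = 3.68e-08). SGK1 averaged 5.11 ± 0.191 FPKM with DHA and 2.41 ± 0.0436 FPKM with DMSO in LP-1 (0.84), and 22.6 ± 0.28 FPKM with DHA and 44.8 ± 1.4 FPKM with DMSO in U266 (-0.96), a difference of 1.80 (adjusted p = 1.59e-07). MYC and TRIB1, and SGK1 in LP-1, were named after their values were seen.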

How the results depend on the processing

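Calls of the 10 genes kept their direction under every alternative run, and leaving out 1 library left 6 lower and 1 higher in LP-1 and 2 lower and 2 higher in U266. DUSP1 in LP-1, which was not called, turned to 0.01 without LP-1 DMSO replicate 1. With a mean of at least 5 FPKM, which tests fewer genes, 2 of the 10 were lower in LP-1, 3034 genes were called there and 1960 differed between lines. With a limit of 2-fold, 895 genes were called in LP-1 and 171 in U266. By that limit 0 of the 10 were lower and 1 was higher in U266 (limma called 2 lower with no fold limit), 2 of the 10 differed between lines and 423 genes did. In a joint fit of the 12 libraries, restricted to genes kept in each line, 3 of the 10 were lower in LP-1 and 2485 genes were called in U266. Without a filter, 8 of the 10 differed. Leaving out 1 library gave 2919 to 7073 calls in LP-1, against 5027. IER2 in U266 kept its call without a filter (limma adjusted p = 0.0094) and without DHA replicate 3 (0.00346). It lost the call without a filter and that library together (-0.42, adjusted p = 0.0623). FOSB's difference was then -0.20.

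The labels do not say whether replicate numbers pair the samples. Correlations of same-numbered DHA and DMSO deviations were 0.07, 0.02 and 0.18 in LP-1 and -0.04, -0.08 and -0.02 in U266. Those of differently numbered libraries lay between -0.17 and 0.16 in LP-1 and between -0.02 and 0.07 in U266. Such values show no clear shared replicate effect and cannot show that the cultures were unpaired. A replicate block changed no call of the 10 and gave 4559 calls in LP-1, 3891 in U266 and 2803 differences. The fits without a filter and without 1 library, the alternatives for genes of the other lists, and the list counts and level order without 1 library were chosen after seeing the data. Depth limits NR4A3 and EGR1 in LP-1 DHA, at 2 to 14 reads a library.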

Other observations

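CEBPB and MCL1, early response genes outside the named rule and chosen after their values were seen, moved the same way in both lines. CEBPB, a stress-responsive bZIP factor, averaged 119 ± 2.32 FPKM with DHA and 27.3 ± 7.24 FPKM with DMSO in LP-1 (log2 change 2.12, limma adjusted p = 0.000436). In U266 CEBPB averaged 90.2 ± 5.07 FPKM with DHA and 23.5 ± 1.45 FPKM with DMSO (1.90, adjusted p = 1.17e-08). MCL1, the antiapoptotic BCL2 relative on which many myeloma cells depend, averaged 155 ± 3.84 FPKM with DHA and 247 ± 8.78 FPKM with DMSO in LP-1 (-0.67, adjusted p = 0.00169, and -0.44 with quantile normalization). In U266 MCL1 averaged 208 ± 10 FPKM with DHA and 264 ± 4.97 FPKM with DMSO (-0.34, adjusted p = 0.000503). The fall of MCL1 differed between the lines (LP-1 minus U266 -0.33, adjusted p = 0.0208), and the difference of CEBPB did not pass (0.22, adjusted p = 0.383).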
